A study of Homo sapiens with 172 samples.

Results

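Single KBM7 cells were ranked by how much of chromosome 19 touched the nuclear lamina, and the 21 cells with the most contact were compared with the 21 cells with the least, out of 84 cells in all. KBM7 is a near-haploid human leukaemia line. A 100 kb bin was called in contact in a cell when its ratio of observed over expected reads was at least 1, and the rank was the percent of the 558 covered bins of chromosome 19 in contact. The groups are called chr19-high and chr19-low cells below, and the 42 cells between them served as a reference. All 84 cells came from haploid cells of clone 5-5, which carried Dam methyltransferase fused to LaminB1. The fusion was stabilised with 0.5 nM Shield1 for 15 h before sorting, and single cells were taken from the smallest 2% in which both Fucci markers of the cell cycle were seen. The groups therefore shared clone, fusion, treatment and sort, and were formed only from the measured contact of chromosome 19. In KBM7 an additional copy of a segment of chromosome 15 is known to be carried on chromosome 19. Chromosome 8 and positions 61000001 to 89900000 of chromosome 15 had no value, and chromosome Y was not analysed here.

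Lamina-associated domains are large regions of DNA that lie against the lamina, a meshwork of lamin proteins that lines the inside of the nuclear envelope. They are mostly gene-poor and little transcribed, whereas gene-dense chromosomes tend to lie towards the nuclear interior. Chromosome 19 is the most gene-dense human chromosome and is known for clusters of zinc finger genes, some of them beside its centromere. The Dam fusion marks DNA near the lamina with methylated adenines, and fragments cut at these marks are amplified and sequenced. The question was whether cells with much chromosome 19 contact also differed on the other chromosomes.

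The labels name no separate cultures, so all cells are 1 sample. Standard deviations (SD) are over cells, describe cell-to-cell variation, and no p-value was made from cells. Each cell was represented by a pair of samples whose numbers differ by 86, and the pair was averaged. All 168 columns had their best correlation with their partner, and 82 of 84 pairs had a chi-square per bin under 1, so their reads differed by no more than counting noise. The pairs of cells 54 and 56 were above it at 1.53 and 3.60, and the lowest value between columns of different cells was 1.34.

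Depth differed between the groups and has to be read beside each result. The deeper column of a chr19-high cell held between 11042 and 404825 reads with a median of 44809, and that of a chr19-low cell between 30532 and 418937 with a median of 124072. Of the chr19-low cells, 12 had at least 100000 reads, against 7 chr19-high cells. Under 30000 reads were 4 chr19-high cells and 0 chr19-low cells. A ratio of 1 stood for 2.43 reads in a bin of median expectation in a column of median depth. In shallower columns it stood for fewer reads, so a contact there rests on less. Cells 48 and 54, whose reads were spread unusually evenly over the genome, were both chr19-high. Cells 69 and 79, which nearly lacked reads on several chromosomes, were both chr19-low. The labels do not say how the cells were prepared in groups, but cells 1 to 29 were shallower than cells 30 to 86 (median 35922 against 124072 reads), and 8 of them were chr19-high and 3 chr19-low.

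Contact of chromosome 19 itself chose the groups and is given as a description only. It averaged 4.89% ± 4.13 of bins (SD, n = 84). In chr19-high cells it ran from 8.06 to 24.0% with a median of 9.14%, in the cells between it averaged 4.08%, and in chr19-low cells it ran from 0 to 1.79% with a median of 0.717%. Cell 72 stood far above the others with 134 bins in contact, or 24.0%. It was followed by cell 48 with 14.7% and cell 2 with 13.4%. At the other end, cell 36 had none of the 558 bins in contact, although it was the deepest cell with 418937 reads. An upper limit of 0.538% for its share would hold only if bins were independent draws, and contacts ran over neighbouring bins. Cells 79 and 69 had 1 bin each, or 0.179%. The upper limit cut through a tie, since 5 cells had 45 bins in contact, and of these cells 12, 15, 37 and 66 were taken and cell 75 was left outside. At the lower limit cell 47 with 1.79% lay just inside and cell 50 with 1.97% just outside. Chromosome 19 held 0.610% ± 0.245 of a cell's reads in chr19-high and 0.112% ± 0.0850 in chr19-low cells, from the same reads that chose the cells. The lowest chr19-high cell had 0.331% and the highest chr19-low cell 0.448%, and 15 of the 21 chr19-high cells were above every chr19-low cell.

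**Figure D1:**
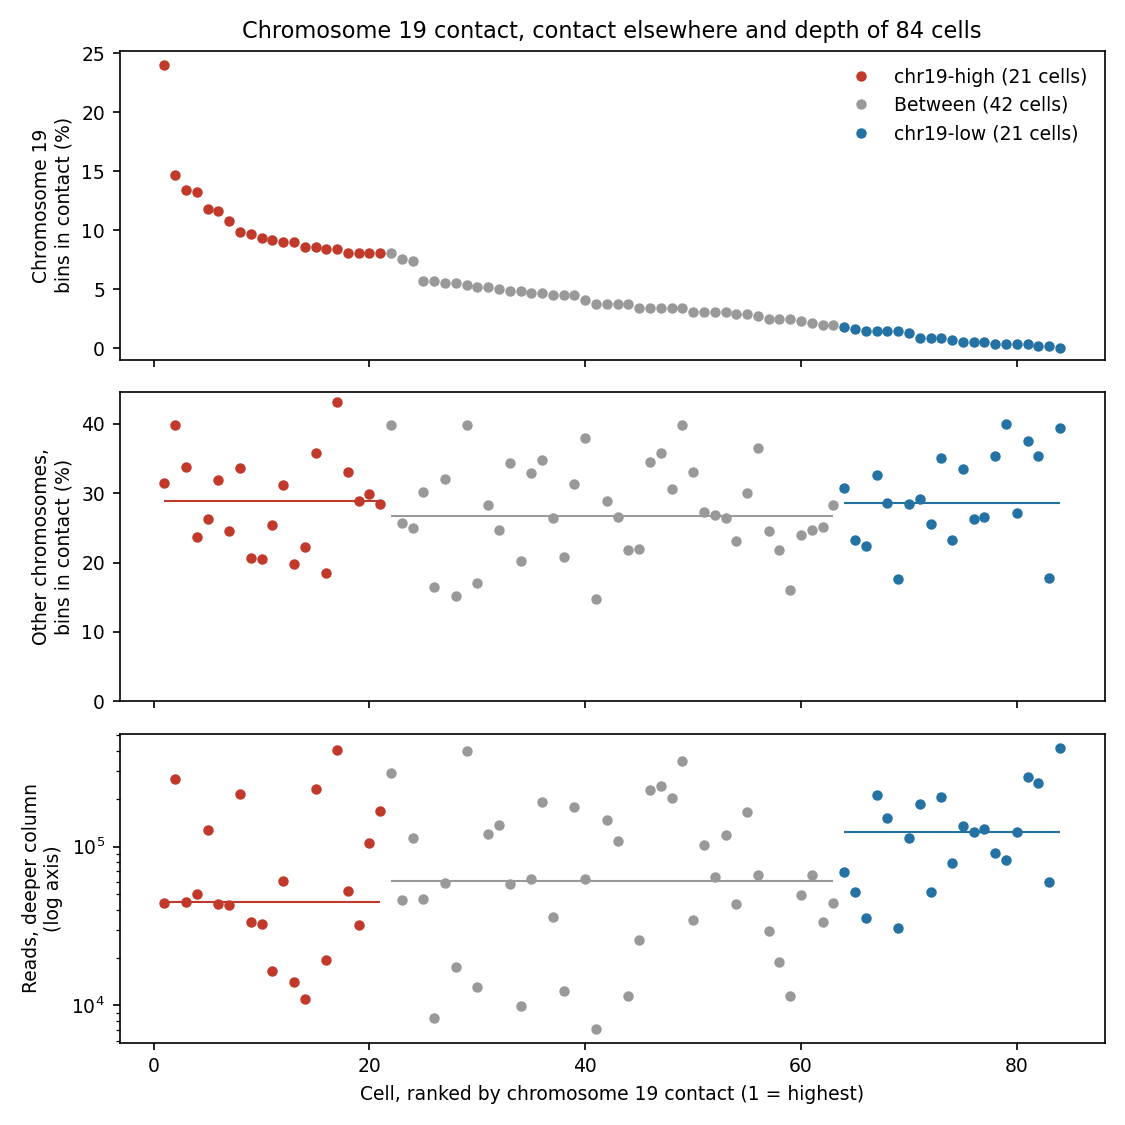
Each point is 1 of 84 cells, ordered by the percent of chromosome 19 bins in contact (upper panel), with the percent of bins in contact on all other chromosomes (middle panel) and the reads of the deeper column on a log axis (lower panel); lines are group medians. Contact elsewhere has medians of 28.8% in chr19-high and 28.5% in chr19-low cells, while median reads are 44809 and 124072.

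The bins of chromosome 19 most often in contact lay mainly on either side of its centromere. Of its 558 bins, 455 were contacted in under 5% of all cells and none in at least 50%. The other 103 bins, 18.5% of the chromosome, held 66.5% of the contacts in chr19-high cells and 64.6% of those in chr19-low cells. They were picked by contact in these same cells and not by position, so a high share in them is partly built in. Between positions 24600001 and 27700000 the chromosome carried no value. Of the 103 bins, 46 were on the short arm side of this stretch and 57 on the long arm side. Within 5 Mb of the stretch lay 44 of the 46 and 38 of the 57. The longest stretch contacted in at least 30% of chr19-high cells was 21600001 to 23300000 on the short arm side, in hg19 coordinates, with a mean frequency of 59.7% in chr19-high and 3.64% in chr19-low cells. The next was 20600001 to 21500000, with 59.8 and 5.29%. These stretches were each touched somewhere by all 21 chr19-high cells. On the long arm side the stretch from 31900001 to 32700000 had 43.5 and 2.98%, and that from 28300001 to 28800000 had 48.6 and 2.86%. Of 2 further stretches of 0.5 Mb there, 29000001 to 29500000 had 34.3 and 0.952%, and 31300001 to 31800000 had 45.7 and 0%. The single bin most often in contact in chr19-high cells was 22200001 to 22300000, with 19 of 21 cells. No gene was placed in these stretches, because the gene table at hand was in another build.

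Cells differed in how their contacts were divided between the short arm side and the long arm side. In the 46 short arm bins, contact was 48.1% ± 17.8 in chr19-high cells, 26.0% in the cells between and 3.83% ± 3.29 in chr19-low cells. In the 57 long arm bins it was 29.9% ± 18.4, 8.10% and 2.09% ± 2.58. Counted at 20% of the bins of a side, a limit chosen after the values were seen, 13 chr19-high cells reached it on both sides, 7 on the short arm side alone, and cell 54 on neither. In the cells between, 1 reached it on both sides, 19 on the short arm side alone and 2 on the long arm side alone. Cells 86 and 74 had 78.3 and 76.1% on the short arm side but 17.5 and 14.0% on the long arm side. Cell 8 had 37.0 and 66.7%. Over 84 cells the shares of the sides had Pearson r = 0.334 and Spearman's rho = 0.336, given as a description because the cells share 1 clone and differ in depth. The groups were chosen on both sides together. The longest run of chromosome 19 bins in contact had a median of 0.8 Mb and a maximum of 2 Mb in chr19-high cells.

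**Figure D2:**
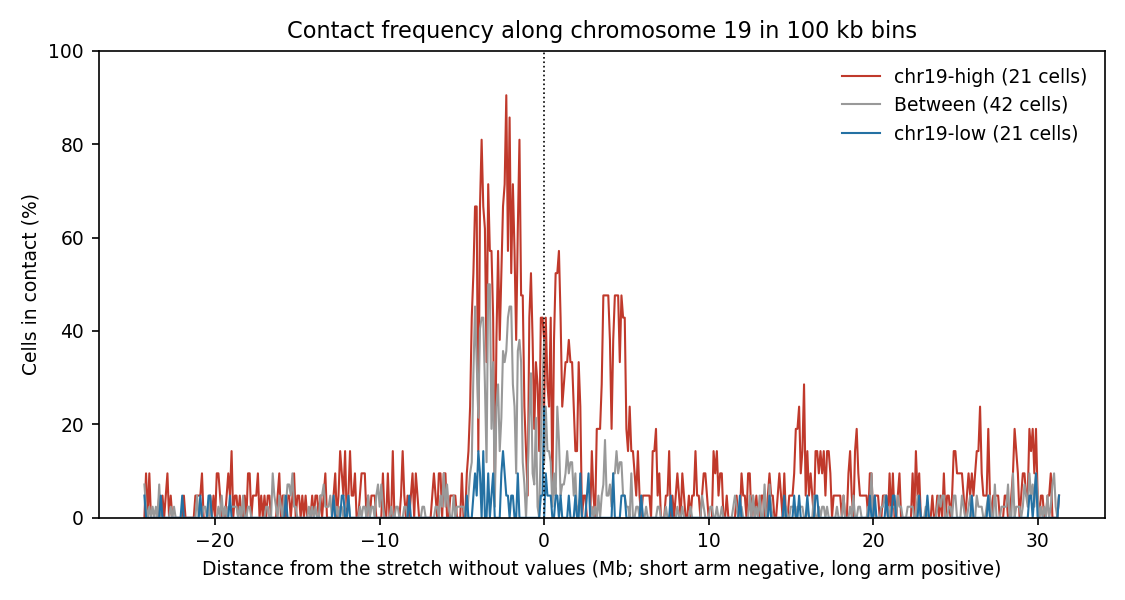
Percent of cells in contact in each 100 kb bin of chromosome 19, by distance in Mb from the stretch without values (dotted line), for 21 chr19-high, 42 intermediate and 21 chr19-low cells. The highest values lie within about 5 Mb of that stretch, with the short arm side highest. Farther out on the long arm side, chr19-high cells reach 28.6% at 15.8 Mb and 23.8% at 26.5 Mb.

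At the main cutoff, cells with more chromosome 19 contact had a similar share of bins in contact in the rest of the genome. Outside chromosome 19, chr19-high cells had 28.7% ± 6.68 and chr19-low cells 29.3% ± 6.48 of 25856 bins in contact (SD, n = 21 each). The lowest, median and highest chr19-high cells had 18.4, 28.8 and 43.1%, and the chr19-low cells 17.6, 28.5 and 39.9%, so the groups overlapped almost completely. The difference of -0.62 points was small beside the SD over cells. The mean ratio outside chromosome 19 was nearly the same by group, 0.936 ± 0.0254 in chr19-high and 0.935 ± 0.0598 in chr19-low cells. With a near-equal mean signal, the share also depends on how evenly that signal is spread over bins, and does not measure total contact. The sign of the difference in share was not stable. The difference was 2.07 points at an equal depth of 30000 reads (15 cells in each group), where the same columns before thinning gave 1.01. Here and below, cells were ranked and bin classes formed anew before and after thinning, so members changed as well as depth. After thinning 12 high and 13 low cells of 15 belonged to the main groups, against 13 and 15 before. At a lower contact cutoff of 0.5 the difference was 7.18 points, with 16 to 17 of the 21 cells of each group in common.

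Over the 84 cells chromosome 19 contact had r = 0.0379 and rho = -0.0400 with contact elsewhere. The other 21 chromosomes mostly moved with the rest of the genome, with a median r of 0.592. The highest value was 0.768 for chromosome 11. Only 22:9, the joined chromosome 22 with the end of chromosome 9, was below chromosome 19, at -0.201. Chromosomes 20 and 17 followed with 0.280 and 0.287. These coefficients are descriptions without a test, and chromosomes near 0% of contact have little range to vary in.

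No other chromosome differed between the groups by more than the spread over cells. Of the 21 others, 11 had a higher mean in chr19-high cells and 10 a lower mean, and no difference exceeded 1 SD. In units of SD the largest were 0.551 on chromosome 20 and 0.523 on 22:9. The SD of single cells does not measure the uncertainty of a mean, so shifts of this size are not excluded. In points the largest excess was on chromosome 12, with 28.0% ± 9.80 against 23.0% ± 10.8. Chromosome 20 came next with 18.1% ± 6.79 against 13.7% ± 9.11. Chromosome 12 held 0.130 and 0.756% of the reads of cells 69 and 79, against a median of 4.58% over all cells, and chromosome 20 held 0.0406 and 0.200%, against 1.49%. Without cells 63, 69 and 79 the differences on chromosomes 12 and 20 were 2.07 and 2.31 points instead of 4.99 and 4.43. On chromosome 12 the medians were 27.3 and 27.9%, the other way round. Chromosome 15, of which 510 bins were covered, had 21.8% ± 12.2 against 19.2% ± 12.3. Chromosomes 15 and 20 were the ones that stayed higher in chr19-high cells in all 19 alternatives run for chromosomes. The lowest differences there were 0.168 and 0.0238 points.

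The largest deficits in mean contact were on chromosomes with a high contact share. Chromosome 4 had 35.5% ± 11.4 in chr19-high and 40.8% ± 11.4 in chr19-low cells, and chromosome X 34.8% ± 10.6 and 39.4% ± 12.0. Chromosome 6 had 32.6% ± 9.08 and 36.3% ± 9.91, and chromosome 13 had 33.0% ± 9.90 and 36.6% ± 14.6. Chromosome 18, which is similar in size to chromosome 19 but gene-poor, differed little with 35.0% ± 14.0 and 35.8% ± 12.1. Set against coding genes per Mb over the 19 other unjoined chromosomes, the differences had r = 0.386 and rho = 0.426. These are descriptions, since all chromosomes were measured in the same cells.

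**Figure D3:**
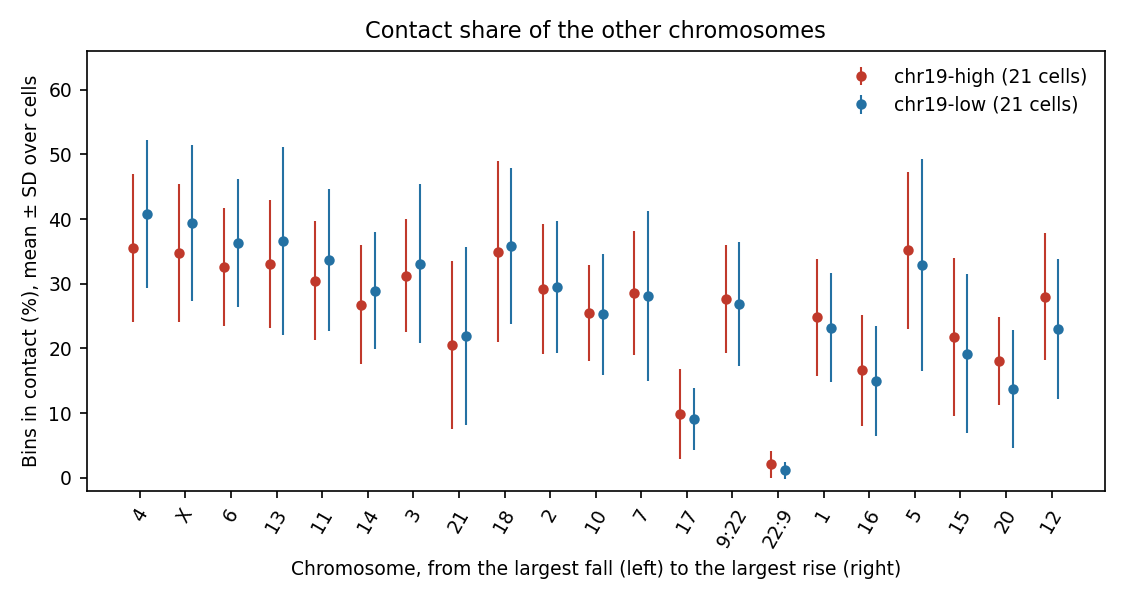
Percent of bins in contact on each other chromosome, as mean ± SD over 21 chr19-high and 21 chr19-low cells, ordered by the difference. The bars of the groups overlap on every chromosome, from chromosome 4 (35.5 against 40.8%) to chromosome 12 (28.0 against 23.0%).

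The other gene-dense chromosomes had a near-equal joint contact share in the groups, but did not all differ in the same direction. Chromosomes 11, 16, 17, 20 and 22:9 together had 19.9% ± 5.14 of 3596 bins in contact in chr19-high cells and 19.7% ± 6.12 in chr19-low cells. The values ran from 11.2 to 30.9% and from 11.9 to 32.0%. Relative to each cell's contact outside chromosome 19 they were 0.696 ± 0.102 and 0.676 ± 0.159. Of the 5 chromosomes, 4 had a higher mean in chr19-high cells and chromosome 11 a lower one, with 30.5% ± 9.24 against 33.7% ± 11.0. Chromosome 11 held 1306 of the 3596 bins, so its deficit largely offset the excess on the other 4 in the joint value. The near-equal joint value therefore does not show that these 4 were level. Each of these differences was under 1 SD over cells. Chromosome 17 had 9.88% ± 6.97 against 9.09% ± 4.83, and chromosome 16 had 16.6% ± 8.54 against 15.0% ± 8.48. On 22:9 contact was 2.08% ± 2.06 against 1.17% ± 1.32, on 142 bins. Over all cells 22:9 had the highest coefficient with chromosome 19, r = 0.324 and rho = 0.214, of the 21 computed, whose median was 0.0384. The sign of the group's difference in contact share turned in 11 of 24 alternatives, and that of the relative value in 4 of 24. The gene-poor chromosomes 4, 5, 13, 18 and X had 34.9% ± 8.80 and 37.3% ± 10.8, and chromosome 5 was the 1 of these 5 with a higher mean in chr19-high cells, 35.2% ± 12.1 against 32.9% ± 16.4.

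Chromosome ends, which mostly lie away from the lamina, were in contact somewhat more in chr19-high cells. In 683 bins within 2 Mb of an end the share was 9.59% ± 3.37 against 8.04% ± 3.20. The chr19-high cells ran from 5.12 to 17.1% with a median of 9.37%, and the chr19-low cells from 2.49 to 16.4% with a median of 7.76%. Of the chr19-low cells, 4 were above the chr19-high median. Of the 21 chr19-high cells, 13 were above the chr19-low median and 1 was above every chr19-low cell. Relative to contact outside chromosome 19 the ends had 0.347 ± 0.138 and 0.275 ± 0.0885, but the medians were closer at 0.314 and 0.296. Cells 54 and 72 were the highest chr19-high cells by this ratio, with 0.749 and 0.545. Over 84 cells chromosome 19 contact had r = 0.299 and rho = 0.181 with contact at ends, and r = 0.0858 without cells 72 and 48. Of 36 single ends, 30 had a higher mean in chr19-high cells, 5 a lower one, and the median difference was 1.75 points. This is not particular to ends, since bins contacted in under 5% of all cells differed by 2.88 points and those of 5 to 20% by 4.37, against 1.55 at ends. The excess at ends kept its sign in all 21 alternatives, between 0.390 and 6.34 points, but was under 1 SD over cells in the main values.

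Named ends with the largest excess were the end of chromosome 4, with 33.8% ± 17.0 against 24.1% ± 24.4, and the start of chromosome 6, with 10.3% ± 12.6 against 3.51% ± 7.13. The end of chromosome 5 had 5.60% ± 9.01 against 0.840% ± 2.81. The end of chromosome 15 had 9.02% ± 11.1 against 4.51% ± 7.31, and that of chromosome 6 had 9.79% ± 15.9 against 5.56% ± 14.4. At these ends, except that of chromosome 4, the SD exceeded the mean in both groups. The excess was not limited to the first 2 Mb: it was 1.75 points up to 1 Mb, 1.38 from 1 to 2 Mb, 2.78 from 2 to 5 Mb and 0.203 from 5 to 10 Mb, and beyond 20 Mb the difference was -1.13.

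The contrast between often and rarely contacted bins was on average lower in chr19-high cells. Often contacted bins, in contact in at least 50% of all cells, numbered 8100 outside chromosome 19, and rarely contacted ones, under 5%, numbered 9244. Often contacted bins were in contact in 60.4% ± 15.4 of cases in chr19-high and 67.1% ± 13.7 in chr19-low cells. This deficit of -6.72 points turned sign in 3 of 20 alternatives, with 5.51 points at a cutoff of 0.5, 0.364 with lower-numbered columns alone and 1.19 in cells 1 to 29. Rarely contacted bins were in contact in 4.01% ± 5.60 and 1.14% ± 0.977. For these the lowest, median and highest chr19-high cells had 0.292, 2.13 and 24.7%, and the chr19-low cells 0.249, 0.692 and 3.67%. Cell 48 was the highest, followed by cell 54 with 11.4% and cell 72 with 9.56%. In all, 6 chr19-high cells exceeded every chr19-low cell.

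The mean ratio in often contacted bins was 2.00 ± 0.308 in chr19-high and 2.14 ± 0.182 in chr19-low cells, and in rarely contacted bins 0.159 ± 0.185 and 0.0835 ± 0.0581. The log2 of often over rarely contacted signal was 4.17 ± 1.40 against 4.89 ± 0.83, a difference of -0.72. The chr19-high cells ran from 0.64 in cell 48 to 6.30 in cell 66, with a median of 4.31, and the chr19-low cells from 2.66 to 6.03, with a median of 5.16. Of the 21 chr19-low cells, 17 were above the chr19-high median. The cells between averaged 5.02, above the mean of chr19-high cells and close to that of chr19-low cells.

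Part of this contrast rested on a few cells. Without cell 48 the difference in log2 signal ratio was -0.49, and without cells 48, 54 and 56 it was -0.38. The excess in rarely contacted bins was then 1.76 and 1.48 points instead of 2.88. Medians of the groups gave -0.85 and 1.44 points. In cells 30 to 86 alone (13 in each group) the log2 difference was -1.14 and the excess 3.81 points. In cells 1 to 29 alone (7 in each group) they were 0.0021 and -0.028. Ranks and classes of bins were formed anew within each set of cells. Only 3 of the 7 low cells in cells 1 to 29 were chr19-low cells, against all 13 in cells 30 to 86. Chromosome 19 contact of these 7 cells averaged 1.69%, against 0.819% in the chr19-low cells. The sets are therefore not compared like for like, and whether they differ was not tested. At 30000 reads the log2 difference was -1.13, against -0.55 in the same columns before thinning, and the excess was 3.03 against 2.52 points. The deficit in often contacted bins was smaller at this depth, with -1.13 against -2.07 points before thinning.

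Over 84 cells chromosome 19 contact had r = 0.448 and rho = 0.272 with contact in rarely contacted bins elsewhere, and r = -0.323 and rho = -0.239 with the log2 signal ratio. Without cells 72 and 48, farthest from the median of chromosome 19 contact, r was 0.237 and -0.157. With the log10 of reads chromosome 19 contact had r = -0.138 and rho = -0.218. With those for contact elsewhere and for ends, these are 5 of 11 coefficients computed with chromosome 19 contact besides those of the single chromosomes.

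**Figure D4:**
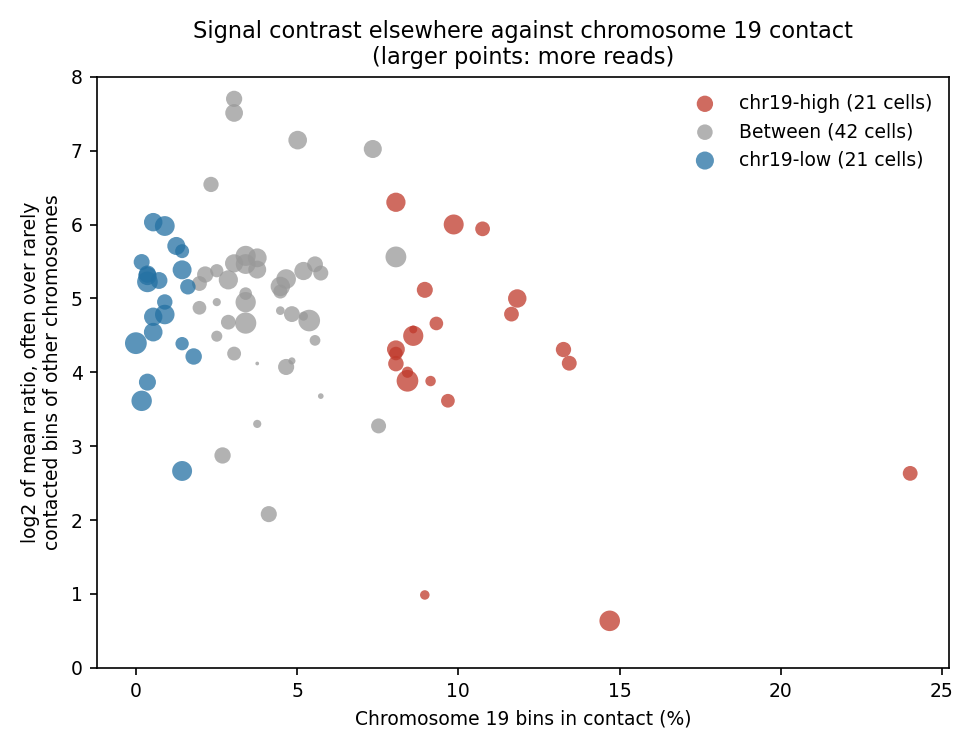
The log2 of the mean ratio in often over rarely contacted bins of the other chromosomes (vertical axis) against the percent of chromosome 19 bins in contact (horizontal axis) in 84 cells, with larger points for deeper cells. Most cells of all groups lie between about 4 and 6, and the chr19-high cells 48, 54 and 72 lie lowest among the 42 members with 0.64, 0.99 and 2.63.

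At the main contact cutoff of 1, the difference between the groups changed sign along contact frequency. When the classes were taken from the 42 cells between, which are in neither group, bins contacted in under 5% of these had 5.23% ± 6.08 in chr19-high and 1.93% ± 1.37 in chr19-low cells. Bins of 5 to 20% had 15.7% ± 7.13 and 12.5% ± 5.59. Bins of 20 to 35% were close to level with 30.7% ± 10.6 and 31.0% ± 10.6. From there the order was the other way round, with 56.7% ± 15.2 and 63.4% ± 13.5 at 50 to 65%, and 64.1% ± 15.7 and 70.9% ± 14.2 at 65% and over. As the mean ratio is nearly equal in all cells, more signal in some bins goes with less in others. The differences in the lowest and highest classes are therefore not independent. Rarely contacted bins of chromosome 19 had 4.34% ± 4.34 and 0.356% ± 0.489, against 4.01 and 1.14% in those elsewhere, but chromosome 19 chose the cells. Runs of consecutive bins in contact outside chromosome 19 averaged 3.30 ± 1.56 bins in chr19-high and 4.35 ± 1.41 in chr19-low cells, and 18 of the 21 chr19-low cells were above the chr19-high median. The run difference of -1.04 bins was -0.42 at 30000 reads, against -0.65 in the same columns before thinning. Members of the groups changed with thinning, and the part of depth and of evenly spread reads in these differences was not tested.

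**Figure D5:**
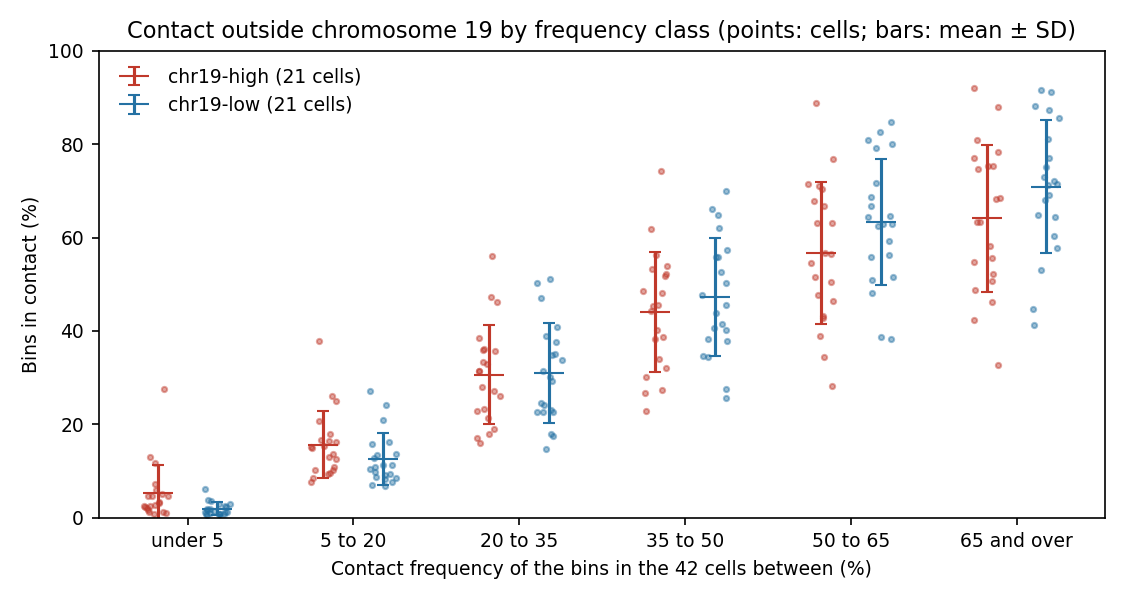
Percent of bins outside chromosome 19 in contact in each cell (points) with mean ± SD for 21 chr19-high and 21 chr19-low cells, by the contact frequency of the bins in the 42 intermediate cells. The means cross near the class of 20 to 35%, with 5.23 against 1.93% in the lowest class and 64.1 against 70.9% in the highest.

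Calls of single bins had a balance that depended on the processing. A bin was called when its contact frequency differed by at least 25 percentage points between the groups. Of the 25856 bins outside chromosome 19, 259 (1.00%) were called higher in chr19-high cells and 915 (3.54%) lower. At a cutoff of 0.5 the balance was the other way round, with 4.85% higher and 0.387% lower, as with lower-numbered columns alone, with 2.28 and 1.42%. Higher-numbered columns gave 1.73 and 2.04%. At 30000 reads it was 5.73 and 4.62%, against 4.40 and 4.94% in the same columns before thinning. In the main groups often contacted bins had 71 higher (0.877%) and 704 lower (8.69%), while a rarely contacted bin cannot reach 25 points by its definition. The gene-dense chromosomes had 30 of 3596 bins higher (0.834%) and 93 lower (2.59%), both below the background. Ends had 5 of 683 higher (0.732%) and 6 lower (0.878%). Chromosome 12 stood out with 46 of 1309 bins higher (3.51%) and 2 lower (0.153%), but cells 69 and 79 had few reads there, as given above. Chromosomes 4, 14, 13 and X had 8.73, 7.62, 7.30 and 7.21% of bins lower. On chromosome 19 itself 66 of 558 bins (11.8%) were higher and none lower, which the choice of cells entails.

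The bins with the largest differences are extremes picked from all bins of 21 cells a group, and are described without a test. The largest excess was at 18:53800001 to 53900000, in contact in 15 chr19-high and 4 chr19-low cells. It was followed by 7:124200001 to 124300000 with 19 and 9 cells, 20:41000001 to 41100000 with 11 and 1, 1:193400001 to 193500000 with 10 and 1, and 9:22 from 108600001 to 108700000 with 13 and 4. Over the bins within 500 kb the mean difference was 23.8 points at the bin on chromosome 18 and 22.5 at that on chromosome 20, but only 8.66 on chromosome 7. The largest deficit was at 13:70200001 to 70300000, with 6 chr19-high and 19 chr19-low cells. The others were 4:87000001 to 87100000 with 4 and 15, 6:58400001 to 58500000 with 3 and 14, 14:84800001 to 84900000 with 9 and 20, and 1:247800001 to 247900000 with 6 and 16 cells. Around the bins on chromosomes 14 and 6 the mean difference was -33.3 and -30.2 points, so the neighbouring bins differed too.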

How the data were processed

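The submitters' processing notes name cutadapt, Bowtie2 2.1.0 and the build hg19. The deposited table gives, for 30376 bins of 100 kb, the ratio of observed to expected reads. The treatment of duplicates and the origin of the expectation: not given in the sources used here. Of 172 samples, 168 had a column, and samples 81, 82, 167 and 168 are not analysed here. Bins without a value (3792) and bins at 0 throughout (170) were left out, which leaves 26414.

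Columns whose numbers differ by 86 were averaged as 1 cell. Reads were recovered as whole multiples of a step per bin and a factor per column (100% whole within 0.02). They served for depth and for thinning to 30000 reads. This recovery and the bin calls were tested on simulated data. For the calls, bins and cells were drawn independently, without the runs of contacts and the differences between cells seen here. That simulation does not give the rate of false calls in these data. PCR reads are not independent molecules, so limits cover counting error only. Gene-dense and gene-poor chromosomes were listed by name. Coding genes per Mb came from the GRCh38.p14 gene table, of which no position was set against the bins. Regions named were the 5 longest stretches on chromosome 19, the 5 bins with the largest rise and fall elsewhere (1 per chromosome), and the 5 ends with the largest excess. Members, lists and alternatives were chosen with earlier results of these data known. Python 3.11.15, numpy 2.4.6 and pandas 2.3.3 were used.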

Additional observations from a re-analysis of the deposited data

How the results depend on the processing

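Of 207 values of the group comparisons under alternatives (23 planned and 5 added after seeing the data), 194 stayed within 1 SD over cells, or within 1.5-fold for the percent of bins called. The percent of bins called has no sign, and it moved beyond 1.5-fold in 10 of its 19 alternatives. Among the other values the sign turned in 27. These include 7 of 19 for contact outside chromosome 19 and 11 of 24 for the contact share of gene-dense chromosomes. Of 399 values of single chromosomes, the sign turned in 69. At a cutoff of 0.5, differences were 7.18 points outside chromosome 19, 6.99 on gene-dense chromosomes and 6.34 at ends, and often contacted bins turned to 5.51 points. The cause was not tested. The percent of bins called higher, 1.00, was 4.85 and 0.634 at cutoffs of 0.5 and 2, 2.28 with lower-numbered columns alone, 1.73 with higher-numbered ones, 3.05 with 10 cells in each group, 10.9 in cells 1 to 29, 2.21 in cells 30 to 86, 5.73 at 30000 reads, 4.40 in the same columns before thinning, and 0.151 when called at 35 points. Smaller groups reach 25 points more easily. Breaking the tie at the upper limit the other way put cell 75 in place of cell 12 and turned no sign but that of chromosome 2. Ranking after a fit on contact elsewhere could hardly differ, as r with it was 0.0379. It gave the same groups and so repeats the main values. Thinning left out 23 shallow cells, and the cells left were ranked anew. No paired analysis was possible because the groups were chosen from 1 set of cells and share no replicate numbers.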

Other observations

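Bins within 2 Mb of each chromosome's longest valueless stretch had 23.9% ± 8.18 in contact in chr19-high cells and 25.8% ± 7.17 in chr19-low cells. Chromosomes 15 and 19 were left out. On chromosomes 13, 14, 21 and 22:9 the stretch began at position 1, so bins lay on its far side alone. The excess beside the centromere of chromosome 19 is entailed by the choice of cells, so no comparison with it is drawn. Values of 0 made up 49.2% ± 17.0 of bins outside chromosome 19 in chr19-high cells and 43.0% ± 12.2 in chr19-low cells.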
